A study of Mus musculus with 6 samples.

Results

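In the Esrrb-GFP negative fraction of mouse ESCs, 1141 genomic regions were listed as bound by OCT4 that were listed for OCT4 in neither the Esrrb-GFP high nor the Esrrb-GFP medium fraction, and for NANOG in no fraction. These regions were chosen by that pattern of presence and absence. They made up 4.80% of the 23767 distinct intervals of the series and 11% (10.4 to 11.6, a 95% Wilson interval) of the 10369 regions that OCT4 had in negative cells. The ESCs carried the label Esrrb-2a-GFPd-IBIH, E14Tg2a cells with a destabilised GFP placed after *Esrrb* through a 2a peptide at both alleles, cultured in LIF and FCS, and all fractions were sorted from this 1 reporter line. The high fraction was the top 10% of GFP, medium the 15% just above negative, and the negative fraction is also called Esrrb-low in the labels. OCT4 was precipitated with a goat polyclonal and NANOG with a rabbit polyclonal antibody, with 1 library per factor and fraction (6 libraries), each pooled from 3 ChIPs. No spread between replicates exists, so no test between fractions was possible, and the intervals given here cover counting error over regions only.

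OCT4 is a POU factor that binds the octamer alone, or next to SOX2 on an Oct-Sox composite element, and is present in both naive and primed pluripotent cells. ESRRB, an orphan nuclear receptor, belongs to the naive state and binds an extended half-site. NANOG is not confined to that state, since the study describes *Nanog* as expressed also in primed cells derived from the epiblast. Absence from a list does not mean absence of binding. The authors took a region off the list of a fraction whose depth-scaled signal fell under 50% of that in the best bound fraction. OCT4 could thus still have been present in high or medium cells at a lower level. From an average profile, the study reports OCT4 as detectable in high cells at the regions gained against those cells, which include the members. Members made up 32.3% (30.8 to 33.9) of the regions listed for OCT4 in negative and not in high cells. The lists carry no signal, so OCT4 in high cells was not tested for the members alone. How far each region lay from the 50% limit was not analysed here. Sequencing depth of the libraries is unknown.

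OCT4 regions without NANOG fall into 7 patterns over the fractions. The members were fewer than the 4166 regions of all fractions, the 2484 of high and medium, the 2205 of medium and negative and the 2029 of medium only. They were close in number to the 1058 regions of high only and the 1009 of high and negative. Just outside the rule lay 30 regions that were listed for OCT4 in negative cells alone but also for NANOG. All 30 were in the NANOG list of high cells, 20 in that of medium and 4 in that of negative cells, and their median width was 130 bp. Members were compared mainly with medium and negative (also gained against high cells), with all fractions (kept throughout) and with high only (the opposite pattern).

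**Figure D1:**
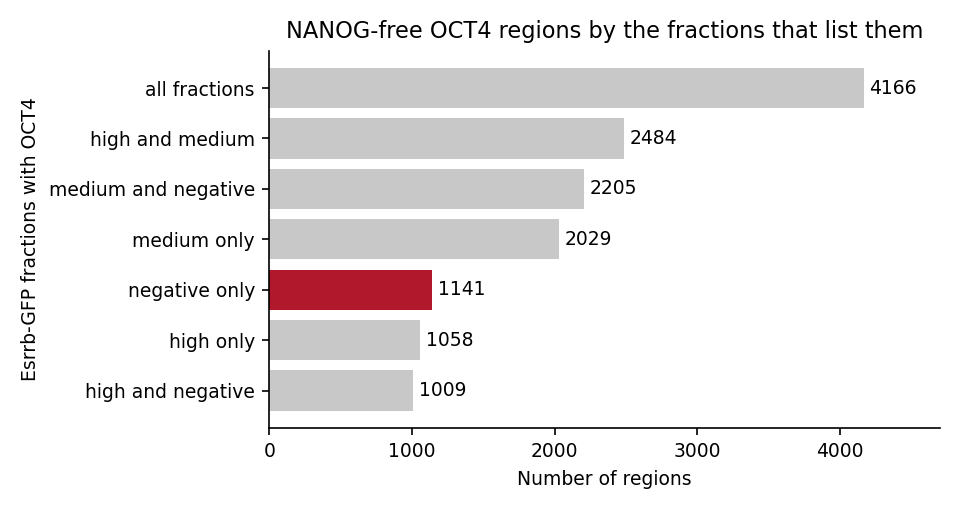
Number of NANOG-free OCT4 regions (x axis) for each combination of Esrrb-GFP fractions that lists them (y axis), with the members in red. The 1141 members are a smaller group than the 4166 regions of all fractions and similar in number to the 1058 regions of high only.

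The sequence under the members was first examined for the composite element, since its octamer part binds OCT4 and its other part SOX2. The composite was searched as CATTGT, 1 free base and ATGCAAAT on both strands, and 0 members held it exactly within 100 bp of the region centre. With 1 mismatch it was found in 11 members, and with 2 mismatches as the best match in 64. Of the 11 matches with 1 mismatch, 10 are printed to compare them with the consensus. Each is named by the closest protein-coding gene, with its mm9 position and the strand on which it is read 5′ to 3′. Capitals mark the element, and the substitution gives the consensus base, its position from 1 at the 5′ end of the element, and the base found. They were picked after their values were seen.
*Erbb4*, chr1:68016907-68016941, minus strand, A13T: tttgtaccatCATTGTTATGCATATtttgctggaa
*Tnp1*, chr1:73252964-73252998, minus strand, A12T: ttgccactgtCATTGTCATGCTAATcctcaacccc
*Cdc73*, chr1:145208180-145208214, plus strand, C1A: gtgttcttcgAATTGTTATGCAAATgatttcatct
*Irx1*, chr13:72164426-72164460, plus strand, A13C: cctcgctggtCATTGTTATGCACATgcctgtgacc
*Pcsk1*, chr13:75480671-75480705, plus strand, C11A: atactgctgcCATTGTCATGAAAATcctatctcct
*Rabl2*, chr15:89481352-89481386, plus strand, C11T: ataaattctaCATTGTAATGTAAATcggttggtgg
*Zfp618*, chr4:62498474-62498508, minus strand, C1G: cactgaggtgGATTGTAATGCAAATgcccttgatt
*Csmd2*, chr4:128038623-128038657, plus strand, C11G: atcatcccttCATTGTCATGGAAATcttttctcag
*Mgmt*, chr7:143812035-143812069, minus strand, A14G: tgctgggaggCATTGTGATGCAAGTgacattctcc
*Acsbg1*, chr9:54509718-54509752, plus strand, G5T: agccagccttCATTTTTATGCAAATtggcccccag
The substitution lay in the octamer part in 8 of the 11 and in the SOX part in 3. The latter 3 (C1A, C1G and G5T) thus keep an exact octamer. None of the 11 lay within 20 kb of a gene of the lists examined below. The element near *Acsbg1* was the only one of the 11 within 1 kb of a transcription start site (105 bp), the one near *Csmd2* lay in an intron, and the other members of the 11 were intergenic, up to 253378 bp from a start site.

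An exact octamer, ATGCAAAT on either strand, was found in 122 of 1141 members, 10.7% (9.03 to 12.6). The octamer is also the last part of the composite, and 18 members held matches of both. With the reversed motif (the same letters read backwards) the share was 0%, and in windows 10 kb downstream it was 0.964%. In all 23767 regions of the series 7.87% had an octamer. The share in members differed little from that of medium and negative regions, 10.4%, a difference of 0.262 percentage points (95% Newcombe interval -1.88 to 2.54). Against all fractions, 12.4%, the difference was -1.67 points with an interval that included 0 (-3.63 to 0.485). Against high only, 7.94%, members were higher by 2.75 points (0.313 to 5.18), and this interval included 0 when adjusted for all 54 motif comparisons described below (-1.41 to 6.89).

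The octamers lay at the centre of the members. Within 50 bp of the centre there were 104 octamers, 90.2 per 1000 regions and 100 bp, against 9.7 between 100 and 240 bp away, a ratio of 9.3. The ratio was 9 in medium and negative, 9.18 in all fractions and 6.08 in high only. In the central 20 bp of the members 33 octamers were counted, the most of any bin. Octamers near the centre also occurred at promoters. The following 7 members lay within 300 bp of a start site with the octamer within 30 bp of the region centre and outside exons, and are named by the gene of that start site, chosen after their values were seen. Capitals mark the octamer.
*Gm1045*, chr5:92416418-92416445, plus strand: cactatgcaaATGCAAATtgcctgactc
*Atf7ip*, chr6:136467307-136467334, minus strand: cggggccgttATGCAAATagatgggggc
*Etv1*, chr12:39507355-39507382, plus strand: gtaattagctATGCAAATgcaagagctt
*Trerf1*, chr17:47277837-47277864, minus strand: taaatccaggATGCAAATtcctcccctg
*Phyhipl*, chr10:70114800-70114827, minus strand: ctaggcttgtATGCAAATaggattataa
*Folh1*, chr7:93924020-93924047, plus strand: tccttcctccATGCAAATcactgcaccc
*Gria3*, chrX:38756172-38756199, minus strand: cacaaacaaaATGCAAATgaggtcccct
*Etv1*, an ETS factor downstream of FGF signalling, had its octamer 3 bp from the centre of a 40 bp region that lay 63 bp from a start site. *Gria3*, a glutamate receptor subunit, and *Atf7ip*, a partner of a histone methyltransferase, were 285 bp and 60 bp away from theirs. In all, 16 of the 141 promoter members had an exact octamer, of which 11 were within 300 bp of the start site. Another of these 16 was at *Hoxb8*, where the member of 160 bp overlapped a UTR.

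**Figure D2:**
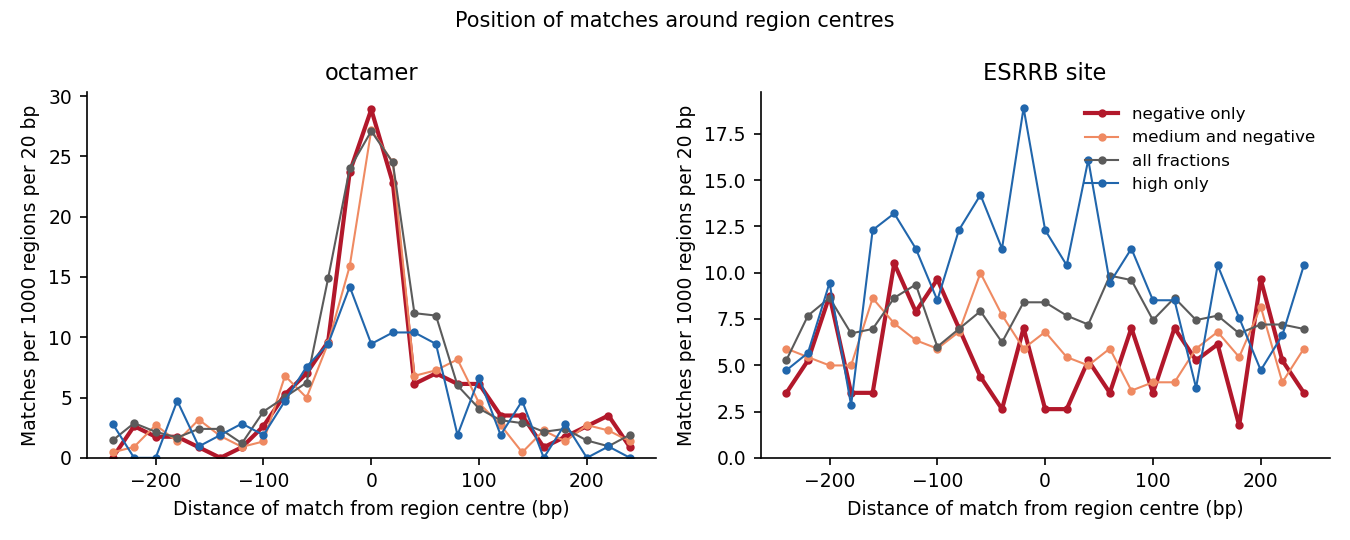
Matches per 1000 regions in bins of 20 bp (y axis) by distance from the region centre in bp (x axis), for the octamer (left) and the ESRRB site (right) in 4 groups of NANOG-free OCT4 regions. Octamers of the members peak at the centre (28.9 per 1000 regions in the central bin), whereas their ESRRB sites show no central peak. ESRRB sites of high only are uneven over the bins. They are denser within 50 bp of the centre (68.3 per 1000 regions and 100 bp) than between 100 and 240 bp away (43.2).

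The Oct-Sox composite with up to 2 mismatches was found in 75 members, 6.57% (5.28 to 8.16), against 0.0876% with the reversed motif, 0.351% at 10 kb downstream and 5.2% of all regions. All fractions had more of it, 9.91%, and the difference of -3.34 points (-4.95 to -1.53) also excluded 0 when adjusted for all motif comparisons (-5.96 to -0.137). Members exceeded high only, 4.25%, by 2.32 points (0.418 to 4.23, adjusted -0.959 to 5.62) and did not differ detectably from medium and negative (0.904 points, -0.761 to 2.73). Counting the octamer, the composite and MORE (ATGCAT repeated without a gap, up to 1 mismatch, a POU dimer element) together, 194 members had a POU-type match, 17% (14.9 to 19.3). The remainder had none of these letters in the window. The share was 15.1% in medium and negative, 19.8% in all fractions, 18.3% in high and negative, 11.7% in high only and 8.53% in medium only. It therefore was higher in members than in high only (by 5.28 points, 2.35 to 8.2) and medium only (by 8.48 points, 6.04 to 11), and lower than in all fractions (-2.8 points, -5.21 to -0.224), with intervals not adjusted for the number of comparisons.

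ESRRB sites were few. TCAAGGTCA with up to 1 mismatch, on either strand, occurred in 48 members, 4.21% (3.19 to 5.53), against 11.2% of all regions. The reversed motif gave 4.73% and windows 10 kb downstream 6.75%, so members held the site no more often than the former and less often than the latter (-2.54 points, -4.44 to -0.674). The share was 5.67% in medium and negative, 7.18% in all fractions and 10.9% in high only, whose own reversed motif gave 5.77%. High and negative, a group listed in high cells, was close to the members at 4.46%, whereas high and medium had 12% and medium only 9.56%. The difference was -2.97 points to all fractions (-4.28 to -1.45) and -6.66 points to high only (-8.92 to -4.48). Both excluded 0 when adjusted for all motif comparisons (-5.1 to -0.242 and -10.6 to -2.96). Against medium and negative it was -1.46 points (-2.92 to 0.136). Median GC content was 48.3% of bases in members and in high only. At least 10 CpG were in 4.38% of member windows, 2.36% of high only and 2.37% of all regions. The CpG difference from high only was 2.02 points (0.502 to 3.57). It included 0 when adjusted for the 57 differences of position, neighbours and sequence described below (-0.643 to 4.76). The part of base composition in the ESRRB shares was not tested. An exact ESRRB site occurred in 3 members, 0.263%, compared with 14 regions, 1.32%, of high only. That difference of -1.06 points (-1.96 to -0.324) included 0 when adjusted (-2.83 to 0.329). Within 50 bp of the centre of the members there were 20 ESRRB matches per 1000 regions and 100 bp, fewer than the 31.3 between 100 and 240 bp away. In high only the corresponding values were 68.3 and 43.2. A POU-type match and an ESRRB site were found together in 10 members.

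**Figure D3:**
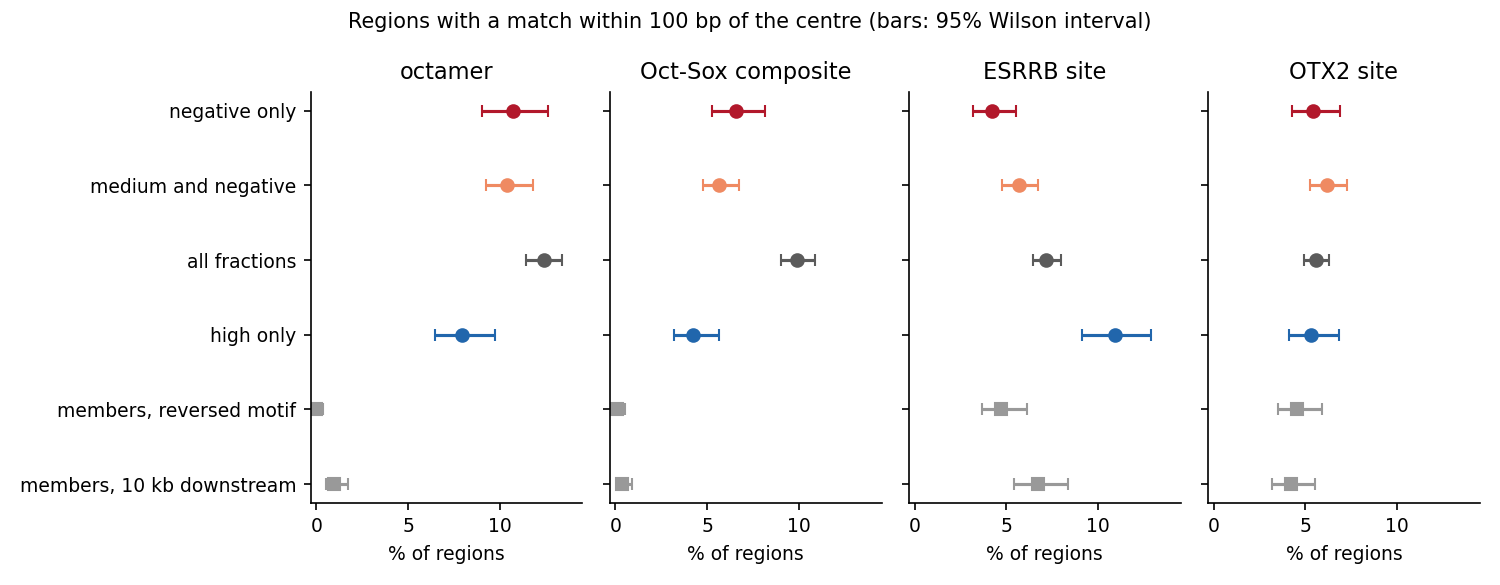
Percentage of regions with a match within 100 bp of the centre (x axis) for 4 motifs, in 4 groups of NANOG-free OCT4 regions (circles) and in the controls for the members (squares), with 95% Wilson intervals. Members resemble medium and negative regions for all 4 motifs, exceed the controls for the octamer and the composite, and lie lowest of the 4 groups for the ESRRB site.

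OTX2, a homeodomain factor of primed cells, has the sites CTAATCC and TTAATCC. One or the other was found in 62 members, 5.43% (4.26 to 6.9), and in 5.59% of all regions. No difference was detected to medium and negative (-0.734 points, -2.33 to 1.01), all fractions (-0.135, -1.52 to 1.48) or high only (0.141, -1.78 to 2.04), nor between members and their reversed motif, 4.56%. A scan for short sites does not measure OTX2 binding. From published ChIP-Seq data, the study reports marginal OTX2 in ESCs at OCT4 regions gained against high cells, which include the members. There OTX2 became robust after induction to EpiLC, a primed state. In total, 18 motifs were compared with 3 groups. Of these 54 differences, 9 had a 95% interval that excluded 0 (0 against medium and negative, 3 against all fractions and 6 against high only), and 3 did so when the interval was widened for 54 comparisons (Bonferroni). Among those that did not survive were the octamer, the composite and the exact ESRRB site against high only. The SOX site CCATTGT was another, with 3.77% of members against 5.3% of all fractions and 5.77% of high only. So was the NRF1 site GCGCATGC, with 1.84% of members against 0.756% of high only. The shares of all regions were 7.22% for the SOX site and 0.778% for the NRF1 site. AP-1 sites, TGACTCA, were in 7.45% of members, 5.25% of all regions and 2.89% of windows 10 kb downstream. TEAD sites, ACATTCC, were in 5.08%, 4.86% and 2.8%. The KLF site GGGNGTGG was in 13.1% of members, 11.9% of all regions and 5.35% of windows 10 kb downstream, but its reversed motif gave 11.7%. The GC box GGGCGG was in 6.92%, 6.4% and 2.72%, and its reversed motif gave 7.62%. The ZIC site CCTGCTG was in 9.9% of members, against 13.8% of all regions. The other groups without NANOG were near the members, with 9.93% in medium and negative, 10.8% in all fractions and 8.32% in high only. Windows 10 kb downstream of members had 4.65%. The FOX site TGTTTAC was in 3.68% of members and 3.83% of all regions, and the GATA site AGATAAG in 2.45% and 1.93%. The E-box CACGTG was in 2.45% of members and 2.18% of all regions. The ETS site CCGGAAGT was in 0.351% and 0.332%, and CTCF sites in 0.613% and 0.429%.

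Members were short regions. Their median width was 60 bp (interquartile range 40 to 100, from 40 to 540 bp), the same median as in medium and negative, medium only and high only, against 100 bp in all fractions. It was also 60 bp in high and negative, and 80 bp in high and medium. The authors joined overlapping peaks across libraries, so width may depend on how many libraries called a region, which was not tested. The lowest possible width of 40 bp was held by 425 members, 37.2%, and 60 bp by 350. Shares were also taken by width. The octamer share was 10.4% (7.8 to 13.6) at 40 bp, 12% (9 to 15.8) at 60 bp and 9.84% (7.19 to 13.3) from 80 bp, and the ESRRB share was 4.71%, 3.71% and 4.1%. The composite share was 4.94% (3.25 to 7.44), 9.14% (6.55 to 12.6) and 6.01% (4 to 8.93), highest at 60 bp, with neighbouring intervals that overlap. The widest member, of 540 bp, lay in an intron of *Zfp608*, a zinc finger gene (chr18:55138612-55139151), and had none of the octamer, composite and ESRRB matches within 100 bp of its centre.

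The next 4 by width were upstream of *Krt18*, a keratin of simple epithelia (440 bp, chr15:101855692-101856131), in an intron of *Foxp4*, a forkhead factor (440 bp, chr17:48024372-48024811), 48947 bp from *Ly86* (400 bp, chr13:37559852-37560251) and in an intron of *Hoxa3* (400 bp, chr6:52157212-52157611). None of these 4 had an octamer, a composite or an ESRRB match within 100 bp of the centre either. The outer parts of the 5 regions lay outside that window.

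The sequences within 100 bp of the centre of the *Krt18* and *Foxp4* members are shown as the middle parts of wide regions. They are in lower case throughout, since capitals are kept for the octamer, the composite and the ESRRB site, none of which was found in these windows. Matches of the other motifs are not marked.
*Krt18*, chr15:101855812-101856012, plus strand: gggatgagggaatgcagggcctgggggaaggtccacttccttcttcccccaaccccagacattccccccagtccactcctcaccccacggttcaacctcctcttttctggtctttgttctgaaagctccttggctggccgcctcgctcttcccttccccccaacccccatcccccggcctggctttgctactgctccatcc
*Foxp4*, chr17:48024492-48024692, plus strand: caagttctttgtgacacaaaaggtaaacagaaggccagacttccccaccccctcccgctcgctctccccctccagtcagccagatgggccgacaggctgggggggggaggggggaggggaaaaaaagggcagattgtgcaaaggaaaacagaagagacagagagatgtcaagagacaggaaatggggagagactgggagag
The *Krt18* member was the only region of any list within 20 kb of that gene.

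By the position of the centre, 685 members were intergenic, 60% (57.2 to 62.8), 404 intronic, 35.4% (32.7 to 38.2), and 52 exonic, 4.56%, of which 28 fell in a UTR and 13 in a coding exon. Of all regions of the series, 56.3% were intergenic, 39.9% intronic and 3.86% exonic. The intergenic share of the members was higher by 4.3 points than in medium and negative, 3.36 than in all fractions and 4.74 than in high only, but each interval included 0 when adjusted for all comparisons of position, neighbours and sequence. The median distance to a start site was 16866 bp, against 12536 bp in medium and negative, 14303 bp in all fractions and 17345 bp in high only. More than 50 kb from any start site lay 310 members, 27.2% (24.7 to 29.8), and 23.7% of all regions. This exceeded medium and negative by 6.31 points (3.26 to 9.43) and all fractions by 5.59 points (2.78 to 8.51). It did not differ detectably from high only (1.93 points, -1.75 to 5.6). The intronic share differed from that of high only, 41%, by -5.61 points (-9.66 to -1.55, adjusted -12.4 to 1.28). Within 1 kb of a start site were 141 members, 12.4% (10.6 to 14.4), compared with 9.45% of high only (2.91 points, 0.29 to 5.51, adjusted -1.57 to 7.35), 11.8% of all fractions, 13.2% of medium and negative and 8.9% of all regions. These promoter members had a median GC content of 52.2%, against 47.8% for the 1000 distal members. Of 19 motif comparisons between promoter and distal members, 2 excluded 0. The GC box was in 14.9% and 5.8% (9.09 points, 3.89 to 16), and the ZIC site in 4.26% and 10.7% (-6.44 points, -9.53 to -1.41). The POU-type share was 17.7% and 16.9% (0.83 points, -5.12 to 8.29).

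Neighbours of any list, of OCT4 in high or medium cells and of NANOG in high cells also differed between members and high only. They come from the same lists that define these groups, so the differences are descriptions only. How far they follow from the rule was not tested. Another region of any list lay within 1 kb of 204 members, 17.9% (15.8 to 20.2), but of 30.8% of high only (-12.9 points, -16.5 to -9.36) and 22.8% of all regions. A NANOG region of high cells lay within 1 kb of 57 members, 5% (3.88 to 6.42), and of 13.8% of high only (-8.8 points, -11.3 to -6.39), while medium and negative had 5.26% and all regions 9.88%. A separate OCT4 region of high cells lay within 1 kb of 135 members, 11.8% (10.1 to 13.8), near the 12.3% and 11.6% of medium and negative and of all fractions and below the 17.6% of high only (-5.75 points, -8.73 to -2.79). Over all regions it was 13.5%. For a separate OCT4 region of negative cells no difference was detected. One lay within 1 kb of 11.8% of members and 12.6% of high only (-0.739 points, -3.5 to 2), and of 10.2% of all regions. The OCT4 lists differ in length, with 12449 regions in high, 14464 in medium and 10369 in negative cells. The part of this in the neighbour shares was not tested. The closest other OCT4 region of high cells was at a median of 42700 bp, against 31620 bp in medium and negative, 32060 bp in all fractions and 28340 bp in high only. Members rarely neighboured each other, as 66 had another member within 10 kb and 24 within 1 kb. Over 19 features of position, neighbours and sequence, 57 differences were computed, of which 21 had a 95% interval without 0 and 8 when widened for 57 comparisons. The 8 comprised both differences at 50 kb above, the 4 neighbour differences from high only within 1 kb (any region, OCT4 of high, OCT4 of medium and NANOG of high), the OCT4 difference at 500 bp, and repeats of more than 10 copies against medium and negative. The neighbour differences among the 8 rest on the lists that the rule used.

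**Figure D4:**
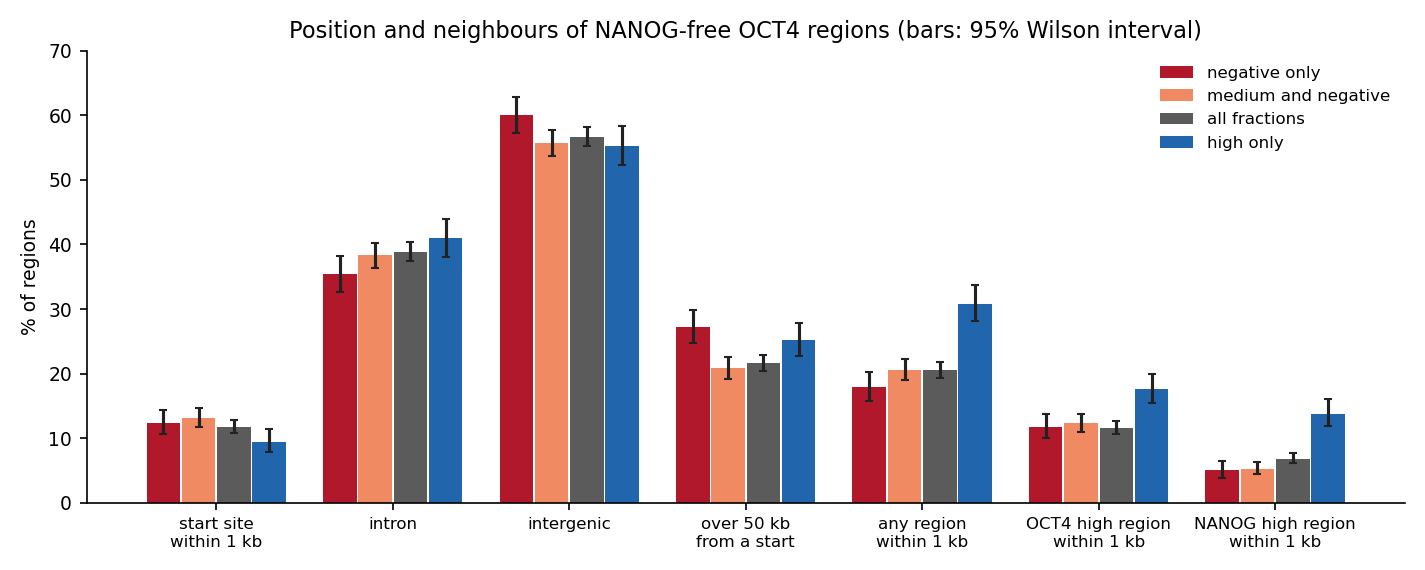
Percentage of regions (y axis, bars with 95% Wilson intervals) by position and by neighbouring regions (x axis) in 4 groups of NANOG-free OCT4 regions. Members have a higher share over 50 kb from a start site (27.2%) than medium and negative and all fractions, and fewer neighbours within 1 kb (17.9%) than high only (30.8%).

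Repeated sequence, taken as windows whose median 24-mer occurred more than 1 time in mm9, held 114 members, 9.99% (8.38 to 11.9), near the 11% of all regions. The difference was -2.93 points to medium and negative (-5.11 to -0.63, adjusted -6.57 to 1.07), -0.834 to all fractions (-2.72 to 1.25) and -1.07 to high only (-3.66 to 1.5). More than 10 copies were found for 30 members, 2.63%, and for 3.37% of all regions. Reads from such windows cannot always be placed, and the part of this in the lists was not tested. Members were found on all autosomes and on chromosome X. As a share of the OCT4 regions of negative cells they ranged from 8.17% (6.33 to 10.5) on chromosome 11 to 15.7% (11.9 to 20.4) on chromosome 19, and were 9% (5.77 to 13.8) on X. Chromosome Y had 0 members, with 1 OCT4 region of negative cells in all.

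Genes within 20 kb were examined in 7 lists of pluripotency, lineage, signalling and chromatin genes. Of 22380 protein-coding genes, 961 had a member within 20 kb of the gene body, 4.29%. Of the 123 list genes in the annotation, 17 did, 13.8%. These genes were also close to other OCT4 regions. Of the 123, 38 had a region of medium and negative (all genes, 9.5%), 38 one of all fractions (15.1%), 13 one of high only (4.22%), and 80 any OCT4 region of negative cells (28.4%). The 17 genes had 20 distinct members, of which 1 had an exact octamer, 0 a composite and 1 an ESRRB site (in *Meis2*). Of the 20, 5 lay within 1 kb of a separate OCT4 region of high cells, against 11.8% of all members. These were at *Prdm14*, *Cdx2*, *Meis2*, *Lefty1* and *Spry2*.

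In the core pluripotency list, 0 of 12 genes had a member, although 10 had an OCT4 region of negative cells. Of the 18 naive genes, 3 had a member and 11 an OCT4 region of negative cells. *Tbx3*, a T-box repressor, had members 1056 bp upstream of its start (chr5:120119592-120119651) and 15354 bp downstream of it (chr5:120136012-120136051). *Prdm14*, which restrains FGF signalling and DNA methylation, had a wide member of 340 bp at 1418 bp upstream (chr1:13118492-13118831). It was 100 bp from an OCT4 region of high cells, and was the only OCT4 region of negative cells near that gene, which had 2 of high and 2 of medium cells. *Gbx2*, a homeobox factor, had a member 10203 bp downstream of its start (chr1:91819612-91819711). Here 3 OCT4 regions were listed in negative cells, the member among them, against 1 in high and 1 in medium. Counts of negative cells near a gene include its members here and in what follows.

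Of the 18 formative and primed genes, 3 had members and 14 an OCT4 region of negative cells. *Pou3f1*, the POU factor OCT6, had a member 17784 bp upstream (chr4:124317092-124317131). Near this gene no OCT4 region was listed in high cells, 2 in medium and 3 in negative cells. *Zic2* and *Zic5*, adjacent zinc finger genes, shared a member in an intron of *Zic5* (chr14:122862332-122862371), and *Zic2* had another 12208 bp downstream of its start (chr14:122886792-122886831). In the germ layer list *Cdx2*, a trophectoderm and hindgut factor, was the only one of 18, with an intronic member (chr5:148116792-148116831). In that list 7 genes had an OCT4 region of negative cells.

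The neural list had 6 of 17. Of the same 17 genes, 12 had an OCT4 region of negative cells, 6 one of medium and negative and 7 one of all fractions. *Pax6*, of eye and forebrain, held its member in an intron 239 bp from the start (chr2:105509272-105509311), with 7 OCT4 regions nearby in each of the fractions. *Nes*, the intermediate filament of neural progenitors, had a member 688 bp upstream (chr3:87774272-87774351). Those of *Zeb2*, *Meis2*, *Pax3* and *Cntnap2* were intronic, between 53603 bp and 1857422 bp from the gene's start, and the region counts for OCT4 near *Meis2* were 7 in high, 11 in medium and 10 in negative cells. The long bodies of such genes take in more sequence.

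Of 22 signalling genes, 3 had members and 15 an OCT4 region of negative cells. *Lefty1*, a Nodal inhibitor, had the one nearest to a start, 71 bp upstream (chr1:182865052-182865111), with 3 OCT4 regions in high, 6 in medium and 3 in negative cells. *Spry2*, a feedback inhibitor of receptor tyrosine kinases, had one 3976 bp upstream (chr14:106299932-106300091), 20 bp from a region bound in high cells. *Fgfr2* had 3, but only because its annotated body runs from 137305965 to 140315033 on chromosome 7, and they lay 1617821 to 1706091 bp from its start. Of the list genes' members it held the only one with an octamer (chr7:138608872-138609011), 38 bp from the centre, shown with the octamer in capitals.
*Fgfr2*, chr7:138608842-138609042, plus strand: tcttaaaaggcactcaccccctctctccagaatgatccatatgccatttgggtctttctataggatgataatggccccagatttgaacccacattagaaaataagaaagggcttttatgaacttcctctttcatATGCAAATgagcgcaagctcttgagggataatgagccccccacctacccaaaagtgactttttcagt
In the Polycomb and chromatin list *Jarid2*, a PRC2 partner, was the only gene of 18, with a member 17291 bp upstream (chr13:44807452-44807651). In this list 11 genes had an OCT4 region of negative cells.

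**Figure D5:**
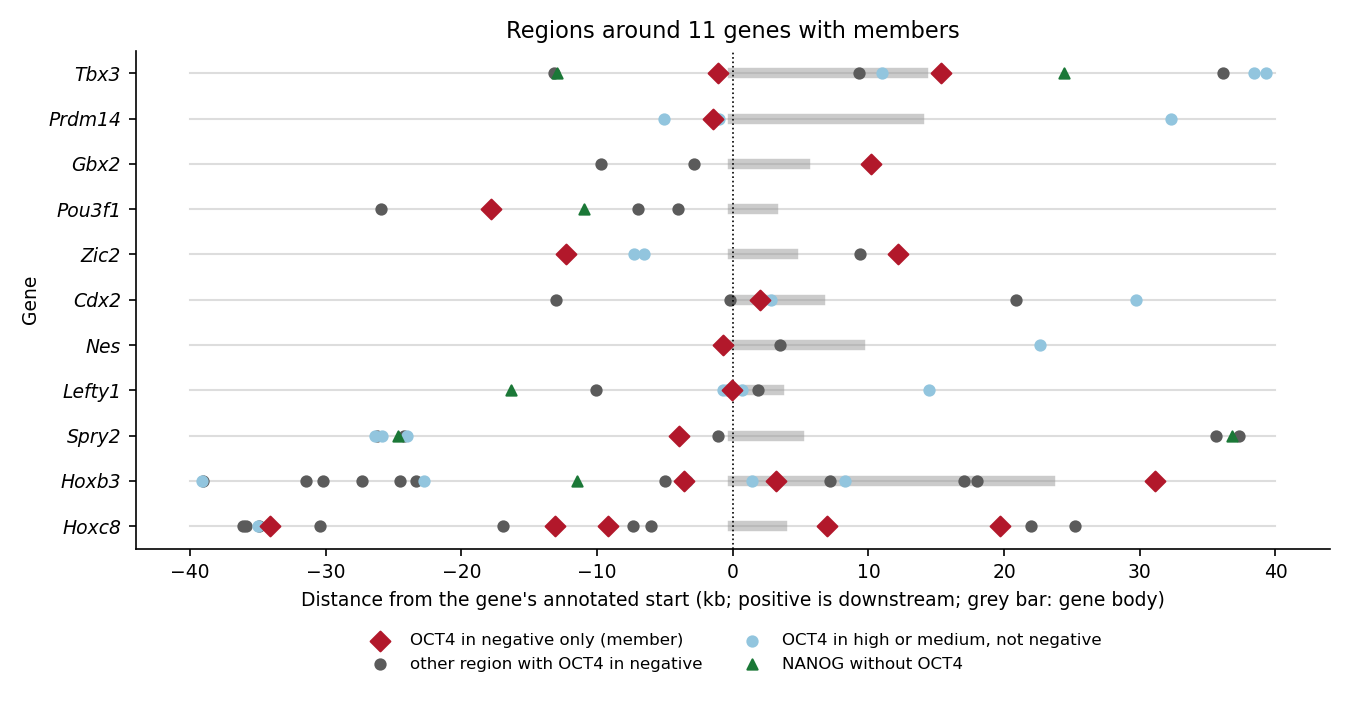
Regions (symbols) by distance in kb from the annotated start (x axis) of 11 genes with members (y axis), with members as red diamonds, other regions with OCT4 in negative cells in dark grey, OCT4 regions not listed in negative cells in light blue and NANOG regions without OCT4 as green triangles. *Hoxc8* has 5 members in the 80 kb shown, and the members of *Nes* and *Lefty1* and 1 of the 2 of *Tbx3* sit near the start.

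The 5 genes with the most members were *Hoxb3*, *Hoxc8*, *Hoxc9* and *Osbp*, with 4 each, and *Btn1a1*, the first by name of 7 genes with 3. *Hoxc8* and *Hoxc9*, HOX genes of posterior identity, shared 3 members. Around *Hoxc8*, OCT4 was listed at 8 regions in negative cells against 2 each in high and medium, and around *Hoxb3* at 9 against 2 and 7. Since these genes were picked for their members, and 4 of the regions of negative cells at each are members, the excess in negative cells follows in part from the rule and is no result. The members around *Hoxc8* were at chr15:102807912-102808051, chr15:102811812-102811871, chr15:102827972-102828071 and chr15:102840712-102840791. All 4 members of *Osbp*, an oxysterol-binding protein, were downstream of the gene, between 33148 bp and 46578 bp from its start. HOX genes were then looked at as a family, a choice made after these values were seen and not tested. Of the 40 annotated, 31 had a member within 20 kb, much as 32 had a region of medium and negative and 31 one of all fractions, while 11 had one of high only. The 31 genes were reached by 15 members (2 at the a, 5 at the b, 6 at the c and 2 at the d cluster). Those 15 were 1.31% of the members. In medium and negative 16 regions were near HOX genes (0.726%), in all fractions 15 (0.36%) and in high only 3 (0.284%). The HOX members had a median GC content of 57.2%, 8 of the 15 were within 1 kb of a start site, and 1, at *Hoxb8*, had an octamer.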

How the data were processed

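OCT4 and NANOG ChIP-Seq lists of 3 sorted fractions were analysed, 1 library per condition. Per the labels and the study's methods, the authors aligned reads with Bowtie in GeneProf, used SISSRs for peaks, joined those that overlapped between datasets and applied the 50% signal limit. The deposited lists hold mm9 chromosome, start and end, with no score, count or p-value. Their coordinates are printed counted from 1.

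Distinct intervals were matched exactly. Windows of 100 bp either side of region centres were read from NCBIM37, the same assembly, and scanned for 18 motifs on both strands. Genes were those of GENCODE M1 (37310 genes). Copy number was the median genome-wide count of a window's 24-mers. Shares have Wilson and differences Newcombe 95% intervals. No test between fractions was made, and regions are not replicates.

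The members, lists and motifs were chosen with earlier results of these data known. Named genes were list genes with a member within 20 kb, the 5 genes with the most members and the closest genes of the 5 widest members. Printed sequences were list-gene members with an octamer or composite and the 2 widest members outside exons and chromosome 18, plus sets marked as chosen after seeing the values, of which 1 sequence is not reported here. Python 3.11.15, numpy 2.4.6, pandas 2.3.3, scipy 1.17.1, pysam 0.24.0, numba 0.67.0, samtools 1.23.1 and matplotlib 3.10.9 were used, and 14 of 14 known answers were recovered on simulated data.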

Additional observations from a re-analysis of the deposited data

How the results depend on the processing

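No paired analysis was possible because no group holds more than 1 sample. Of 156 alternative values, 124 kept their side of the threshold or their range and 0 reversed. A change of sign counted as reversed only if the main or the alternative interval excluded 0. Some differences whose intervals included 0 did change sign. The octamer difference to medium and negative went from 0.262 to -0.0289 points in regions of at least 60 bp, and the promoter difference from -0.794 to 0.832. Limiting members to at least 60 bp left 716. Windows of 50 bp or 250 bp either side of the centre gave octamer shares of 8.06% and 12.7%, ESRRB shares of 1.84% and 12% and OTX2 shares of 2.63% and 11%, 50 bp gave a composite share of 5%, and 250 bp a GC median of 46.5%. Fewer mismatches gave a composite share of 0.964% and an ESRRB share of 0.263%. The promoter share was 7.62% at 500 bp, 28.7% at 5 kb and 10.2% for protein-coding genes. Repeats of more than 10 copies held 2.63%. OCT4 regions of high cells were within 500 bp of 8.5% and within 10 kb of 27.7%.

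The ESRRB difference from high only and the composite difference from all fractions kept their call under all 7 alternatives each, among them regions with no other region within 1 kb, an alternative added after the data were seen. The differences from high only were less firm. For the octamer the interval included 0 with 250 bp windows (2.59 points), regions of at least 60 bp (2.83) and distal regions (2.35), for the composite with 1 mismatch (0.586), for promoters at 500 bp (1.48), at 5 kb (2.95) and for protein-coding genes (1.75), and for introns with regions of at least 60 bp (-3.46). Against all fractions it included 0 for exact ESRRB sites (-0.313) and for introns of protein-coding genes (-2.73) or regions of at least 60 bp (-2.2), and against medium and negative for repeats in regions of at least 60 bp (-2.72). It newly excluded 0 for the octamer against all fractions with 250 bp windows (-2.49), for ESRRB against medium and negative without repeated windows (-1.68), and for repeats of more than 10 copies against high only (-2.47). Merging within 500 bp left 995 members. List genes with a member numbered 14 at 5 kb, 21 at 50 kb, 16 by closest gene and 16 without *Fgfr2*, the last chosen after the data were seen. The causes of these changes were not tested. Unknown depth and single libraries limit every count.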
